A study of Mus musculus with 6 samples.

Results

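The genes described here are 8 secreted matricellular genes: the tenascins Tnc and Tnn, the thrombospondins Thbs1 and Thbs2, the fasciclin-domain genes Postn and Tgfbi, and the CCN genes Ctgf and Cyr61. They were picked by name, and all 8 were found among the 16455 genes of the deposited count table and passed the filter on low counts that left 13630 genes for testing. RNA-seq was performed on primary osteoblasts from 3-day-old C57/B6 pups after 3 days of culture, with 3 libraries per genotype. TCKO cells came from triple conditional knockout mice, which carry Prx1-Cre and the floxed alleles Tet1 fl/fl, Tet2 fl/fl and also Tet3 fl/fl, and WT cells from wild-type mice. Prx1-Cre is active in limb and skull mesenchyme, so a cell outside that lineage keeps its Tet alleles. Whether WT pups carried floxed alleles or Cre is not stated in the labels. Nothing in the labels says that the libraries of a genotype came from different cultures, animals or litters. The p-values below therefore reflect the scatter among these samples alone, and that scatter may be technical.

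Matricellular proteins are secreted into the extracellular matrix but do little to hold it up. They bind integrins, other receptors, growth factors and matrix fibres, and so change how cells adhere, migrate and receive signals. In the skeleton they are known from the periosteum, from developing bone and cartilage, from tendon and from healing fractures. Thrombospondin-1 can release active TGF-beta from its latent complex, and Ctgf and Cyr61 are widely used readouts of the transcriptional co-activators YAP and TAZ, which act through TEAD factors on DNA.

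Total counts ran from 8119261 to 8986371 reads in TCKO libraries and from 8418241 to 10657824 reads in WT libraries. In both genotypes replicate 3 stood apart from replicates 1 and 2. The chi-square per degree of freedom between libraries of 1 genotype was 2.53 (TCKO) and 1.75 (WT) for replicates 1 and 2, and between 15.8 and 23.0 for any pair with replicate 3. Labels do not say how replicate 3 differed. Counts cover whole Tet genes and are no check of the labels: Tet1 was lower in TCKO cells (log2 fold change -0.94 ± 0.22 SE, adjusted p = 0.0207 in edgeR's quasi-likelihood test), Tet2 did not pass (-0.29, adjusted p = 0.244), and Tet3 was higher (0.48 ± 0.09, adjusted p = 0.00803). As for the osteoblast label, Col1a1, a chain of type I collagen, had 8947 to 12834 CPM (counts per 1000000 reads, scaled by the TMM method) in TCKO libraries and 17129 to 18674 CPM in WT libraries, and Runx2, the master factor of the lineage, had 48.2 to 56.5 and 66.6 to 71.9 CPM. Of the later markers, Alpl had 2.66 to 5.20 CPM in TCKO libraries and 18.7 to 61.8 CPM in WT libraries, while Bglap and Dmp1 are not in the table. Spp1, a further marker, went the other way, with 3813 to 10574 CPM in TCKO libraries and 861 to 2031 CPM in WT libraries. Of the 8 osteoblast markers tested, Spp1 passed as higher, 3 passed as lower and 4 did not pass.

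TET enzymes oxidise methylcytosine, which in mammals lies mostly at CpG dinucleotides, so the CpG content of the upstream windows is shown for the 2 members that changed. The windows are the 250 bases before a transcript start listed by RefSeq in assembly GRCm38.p6, read 5′ to 3′ on the strand of the gene, with every CpG in capitals. The Tnn start used lies inside the outer bound of the annotated gene, so part of its window falls within the gene, and positions are counted from that start. No methylation value was used here.
Tnn (chr1:160153576-160153825, minus strand): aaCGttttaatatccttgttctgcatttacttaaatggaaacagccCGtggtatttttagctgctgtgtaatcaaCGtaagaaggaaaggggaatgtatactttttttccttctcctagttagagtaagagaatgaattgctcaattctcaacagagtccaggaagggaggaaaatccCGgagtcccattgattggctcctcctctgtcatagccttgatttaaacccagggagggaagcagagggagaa
Tnc (chr4:64047016-64047265, minus strand): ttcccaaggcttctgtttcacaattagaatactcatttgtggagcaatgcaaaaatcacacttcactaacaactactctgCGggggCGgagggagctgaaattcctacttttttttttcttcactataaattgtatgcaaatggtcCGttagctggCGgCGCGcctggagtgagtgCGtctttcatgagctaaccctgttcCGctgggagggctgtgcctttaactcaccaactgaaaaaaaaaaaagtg
The Tnn window holds 4 CpG dinucleotides and that of Tnc holds 8, against a median of 6 and quartiles of 2 and 16 over 32851 such windows. A second Tnc start has a window with 10 CpG. Windows were matched for 6 of the 8 genes, all but Thbs1 and Ctgf. Those of Cyr61 and Tgfbi hold 15 CpG each, that of Thbs2 holds 3, and the pair of Postn windows hold 3 and 4. Cyr61 is shown with the core letters bound by TEAD factors, GGAATG on either strand, in capitals.
Cyr61 (chr3:145649986-145650235, minus strand): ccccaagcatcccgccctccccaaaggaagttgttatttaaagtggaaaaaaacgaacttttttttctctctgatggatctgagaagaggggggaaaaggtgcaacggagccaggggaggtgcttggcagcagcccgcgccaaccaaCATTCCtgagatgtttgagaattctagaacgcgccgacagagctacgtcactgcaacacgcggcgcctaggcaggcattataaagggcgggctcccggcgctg
The match in Cyr61 starts at position -103 and lies on the opposite strand, so it reads CATTCC here. A match in the Tnn window starts at position -160, and no other matched member had one, while 12.6% of all windows did. The letters TGTGGT, the core bound by RUNX factors, occur in no window of these members on either strand and in 14.0% of all windows, and TGANTCA, the AP-1 core, likewise in none and in 6.75%. TATAAA, sought on either strand, starts at position -126 in the printed Tnc window and at -205 in that of the second Tnc start. It starts at -126 in Thbs2, at -26 in the second Postn window and at -25 in Cyr61. The first Postn window has no match, and 12.4% of all windows have one. A match of letters is a description of the window and not a measured binding site.

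All 8 genes were measured well above the filter, at 396 reads or more in every library, and they differed widely in level. Per kilobase of exon, the only scale on which genes are compared with each other here, Thbs1 had the highest level of the 8 in every library, 2276 ± 247 CPM per kb in TCKO cells and 2999 ± 703 CPM per kb in WT cells (mean ± SD, n = 3 each, as for all such values below). Its reads alone made up 1.24% to 1.49% of a TCKO library and 1.32% to 2.04% of a WT library. Among the 14855 genes with an exon length, Thbs1 ranked 4, 4 and 6 per kb in TCKO replicates 1 to 3. In WT replicates 1 to 3 it ranked 1, 1 and 5. The 8 genes together took 2.25%, 2.21% and 2.22% of the reads of the TCKO libraries, against 2.74%, 2.74% and 2.17% in WT. The low WT value belongs to replicate 3, so the groups overlapped in their summed share.

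In TCKO cells Thbs1 was followed by Ctgf (593 ± 175 CPM per kb), Cyr61 (520 ± 229), Tnc (447 ± 93.7), Thbs2 (235 ± 65.4), Tgfbi (26.1 ± 1.23), Postn (24.2 ± 4.35) and Tnn (8.52 ± 0.17). Among neighbours in that order, the libraries of Ctgf and Cyr61, of Cyr61 and Tnc, and of Tgfbi and Postn overlapped. WT cells gave Ctgf (694 ± 19.7 CPM per kb), Cyr61 (599 ± 134), Thbs2 (268 ± 15.0), Tnc (198 ± 8.10), Tnn (129 ± 58.1), Postn (23.6 ± 5.61) and Tgfbi (18.7 ± 9.94) after Thbs1. Here Ctgf and Cyr61, Tnc and Tnn, and Postn and Tgfbi overlapped. Both tenascins changed place: Tnc lay above Thbs2 in all 3 TCKO libraries and below it in all 3 WT libraries, and Tnn was the lowest of the 8 in all 3 TCKO libraries but lay above Postn and Tgfbi in all 3 WT libraries.

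**Figure D1:**
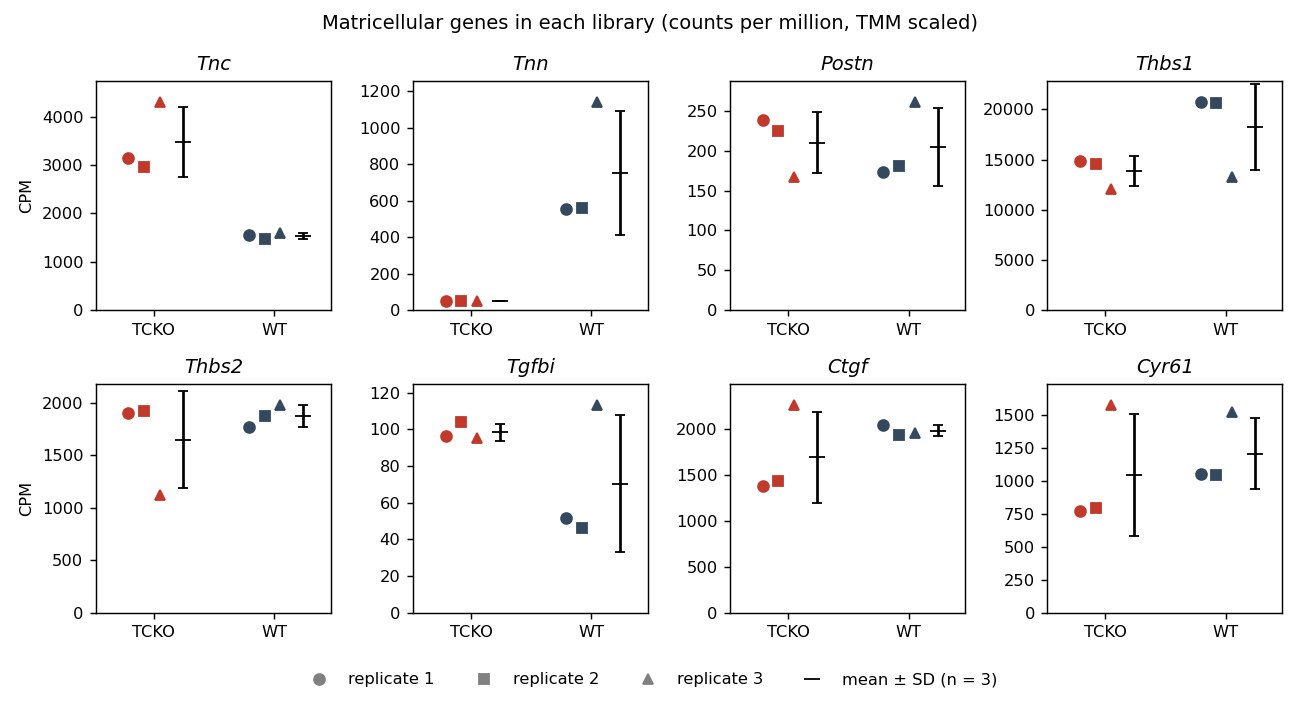
CPM (y axis, from 0) of each matricellular gene in the TCKO (red, left) and WT (dark, right) libraries, with the replicate number as the symbol and the mean ± SD (n = 3) as the black bar. Tnc and Tnn are the panels in which the genotypes do not overlap, with Tnn near 50 CPM in TCKO cells, and replicate 3 (triangles) lies apart from replicates 1 and 2 in at least 1 genotype in every panel.

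Whether loss of TET activity altered these genes was asked by comparing TCKO with WT libraries across all 13630 genes. Of the 8, 1 gene was higher in TCKO cells (Tnc), 1 was lower (Tnn) and 6 did not pass at an adjusted p of 0.05, where 9.44% of all genes tested were higher and 8.9% were lower. Both passing genes also exceeded a fold of 2, as did 6.07% of all genes tested. Tnc and Tnn were the members whose TCKO and WT values did not overlap, a pattern that 38.2% of all genes tested showed in either direction. The median log2 fold change of the 8 was -0.20, against -0.001 over all genes. These are bulk samples, in which fewer cells of a type and less RNA per cell cannot be told apart.

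Tnn, which encodes tenascin-W, a tenascin of developing bone and periosteum, had 49.5, 48.7 and 50.6 CPM in TCKO libraries, against 554, 558 and 1141 CPM in WT libraries. Every TCKO library lay below every WT library, and WT replicate 3 was about 2.05 times as high as the mean of WT replicates 1 and 2, while the TCKO libraries lay close together. Tnn was 15.1-fold lower in TCKO cells (log2 fold change -3.92 ± 0.33 SE, 95% interval -4.73 to -3.11, adjusted p = 0.00105 in edgeR). The gene lies on chromosome 1 (160085029 to 160153692, minus strand).

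Tnc, which encodes tenascin-C, an adhesion-modulating protein of embryonic and healing tissue, went the other way. It had 3143, 2964 and 4304 CPM in TCKO libraries, against 1555, 1469 and 1592 CPM in WT libraries. Every TCKO library lay above every WT library, and TCKO replicate 3 was the highest. Tnc was 2.26-fold higher in TCKO cells (log2 fold change 1.17 ± 0.15 SE, 95% interval 0.84 to 1.51, adjusted p = 0.00145 in edgeR). It lies on chromosome 4 (63959785 to 64047015, minus strand), where 176 of its 7772 exon bases overlap an antisense transcript, 8030451A03Rik, and the reads of the pair cannot be told apart there if the counting ignored strand, which the sources do not state. With replicates 1 and 2 of each genotype summed, which leaves 2 libraries per genotype, the adjusted p was 0.051 for Tnc (log2 fold change 1.25) and 0.021 for Tnn (-4.09).

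Since both tenascins are counted in the same library, their ratio needs no scaling between libraries. Per kilobase, Tnc exceeded Tnn 47.5, 45.6 and 63.7 times in TCKO libraries, against 2.10, 1.97 and 1.04 times in WT libraries. The groups did not overlap, and the mean log2 ratio was 4.99 higher in TCKO cells. An exact two-sided permutation test of 3 against 3 libraries gave p = 0.1, the smallest it can give (adjusted p = 0.4 over 4 ratios).

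**Figure D2:**
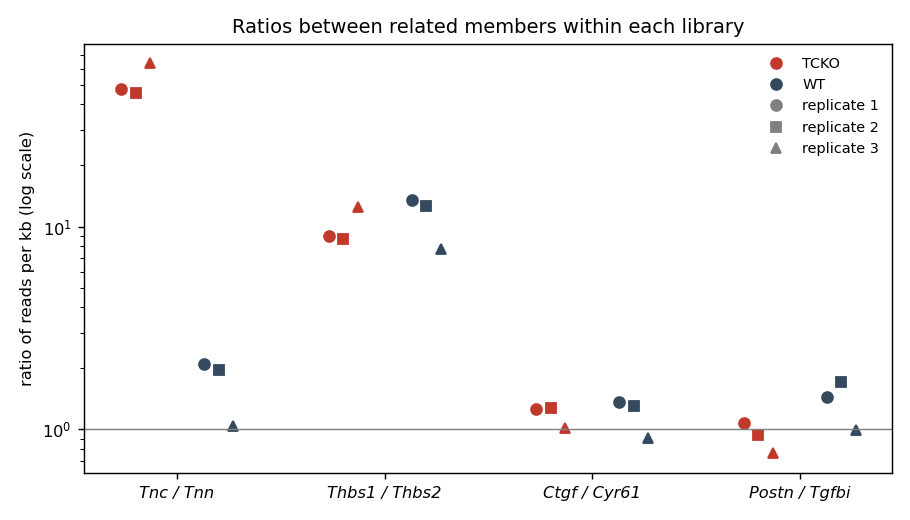
Ratio of reads per kb between related members within each library (y axis, log scale), for TCKO (red, left of each pair) and WT (dark, right), with the replicate number as the symbol. The Tnc to Tnn ratio is 45.6 or more in TCKO libraries and 2.10 or less in WT libraries, and the other 3 ratios overlap between genotypes.

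Thbs1 encodes thrombospondin-1, a glycoprotein that binds CD36 and CD47 and activates latent TGF-beta. It had 14855, 14515 and 12103 CPM in TCKO libraries, against 20743, 20611 and 13281 CPM in WT libraries. WT replicates 1 and 2 lay above every TCKO library, but WT replicate 3 lay below TCKO replicates 1 and 2, so the groups overlapped. The log2 fold change was -0.40 ± 0.19 SE (95% interval -0.82 to 0.03, adjusted p = 0.177 in edgeR), and without WT replicate 3 it was -0.58 and passed (adjusted p = 0.0104). The latter fit leaves WT replicates 1 and 2, the WT libraries closest to each other. Thbs1 lies on chromosome 2 (118111876 to 118127133, plus strand), with 208 of its 6073 exon bases shared with the antisense gene Gm29233.

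Thbs2 encodes thrombospondin-2, known for its part in collagen fibril assembly and as an inhibitor of vessel growth. It had 1901, 1922 and 1118 CPM in TCKO libraries, against 1771, 1876 and 1981 CPM in WT libraries. TCKO replicate 3 alone lay below all WT libraries, and the other TCKO values fell inside the WT range. The log2 fold change was -0.19 ± 0.20 SE (95% interval -0.65 to 0.28, adjusted p = 0.557), and 0.03 without TCKO replicate 3. The gene lies on chromosome 17 (14665500 to 14694262, minus strand). Thbs1 exceeded Thbs2 per kilobase 9.01, 8.71 and 12.5 times in TCKO libraries, against 13.5, 12.7 and 7.73 times in WT libraries, and the groups overlapped (exact two-sided permutation p = 0.8).

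Postn encodes periostin, a fasciclin-domain protein of periosteum and tendon that binds tenascin-C and collagen. Its level was 239, 225 and 167 CPM in TCKO libraries, against 173, 181 and 261 CPM in WT libraries. TCKO was the higher genotype in replicates 1 and 2 and the lower one in replicate 3. The log2 fold change was 0.04 ± 0.20 SE (95% interval -0.43 to 0.50, adjusted p = 0.923), and its sign turned without TCKO replicate 1 or 2 or WT replicate 1 or 2, to between -0.07 and -0.01. Postn lies on chromosome 3 (54359267 to 54391041, plus strand).

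Tgfbi, the other fasciclin-domain gene, encodes an integrin-binding matrix protein named for its induction by TGF-beta. It had 96.6, 103.8 and 95.2 CPM in TCKO libraries, against 51.7, 46.0 and 113.6 CPM in WT libraries. WT replicate 3 was the highest of all 6, and WT replicates 1 and 2 were the lowest. The log2 fold change was 0.49 ± 0.35 SE (95% interval -0.38 to 1.36, adjusted p = 0.395), and without WT replicate 3 it was 1.01 and passed (adjusted p = 0.000243). Again, the latter fit leaves only the close WT replicates 1 and 2. Tgfbi lies on chromosome 13 (56609586 to 56639359, plus strand). The ratio of Postn to Tgfbi per kilobase was 1.07, 0.94 and 0.76 in TCKO libraries, against 1.45, 1.70 and 1.00 in WT libraries, with TCKO replicate 1 above WT replicate 3 (exact two-sided permutation p = 0.2).

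Ctgf, the CCN gene for connective tissue growth factor, had 1382, 1434 and 2272 CPM in TCKO libraries, against 2051, 1944 and 1966 CPM in WT libraries. TCKO replicates 1 and 2 lay below all WT libraries and TCKO replicate 3 above all of them. The log2 fold change was -0.23 ± 0.19 SE (95% interval -0.66 to 0.21, adjusted p = 0.440), and without TCKO replicate 3 it was -0.49 and passed (adjusted p = 0.00148). The latter fit leaves TCKO replicates 1 and 2, the TCKO libraries closest to each other. Ctgf lies on chromosome 10 (24595442 to 24598683, plus strand), and 665 of its 2861 exon bases are shared with the antisense transcript Gm15270, so its reads are uncertain in the same way as those of Tnc and Thbs1.

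Cyr61 encodes a CCN protein that binds integrins and supports the adhesion and migration of mesenchymal cells. It had 772, 792 and 1583 CPM in TCKO libraries, against 1057, 1050 and 1523 CPM in WT libraries. In both genotypes replicate 3 was the highest, 2.02 times the mean of replicates 1 and 2 in TCKO cells and 1.45 times in WT cells, and the groups overlapped. The log2 fold change was -0.21 ± 0.32 SE (95% interval -0.99 to 0.58, adjusted p = 0.707), the wider interval of the CCN pair. Cyr61 lies on chromosome 3 (145646971 to 145649985, minus strand). Ctgf exceeded Cyr61 per kilobase in both genotypes in replicates 1 and 2, by 1.26 and 1.28 times in TCKO cells and by 1.37 and 1.31 times in WT cells, while replicate 3 gave 1.01 in TCKO and 0.91 in WT (exact two-sided permutation p = 1).

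Because replicate 3 stood apart, TCKO was also set against WT within replicates 1 and 2 (a ratio of mean CPM) and within replicate 3 alone, as values with no test. Tnc was higher in both sets (log2 ratio 1.01 within replicates 1 and 2, and 1.44 within replicate 3), and Tnn was lower in both (-3.50 and -4.50). Thbs1 was also on the lower side in both (-0.49 and -0.13). The other 5 changed sign between the sets. Within replicates 1 and 2 the ratio was above 0 for Postn, Thbs2 and Tgfbi (0.39, 0.07 and 1.04) and below 0 for Ctgf and Cyr61 (-0.50 and -0.43). Within replicate 3 the signs were the reverse: Postn, Thbs2 and Tgfbi had -0.64, -0.83 and -0.25, and Ctgf and Cyr61 had 0.21 and 0.06. So 5 of the 6 members that did not pass (83.3%) had opposite signs in the sets, as did 37.0% of the 11111 genes that did not pass and had reads in every library. The labels do not tie replicate 3 to a batch.

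**Figure D3:**
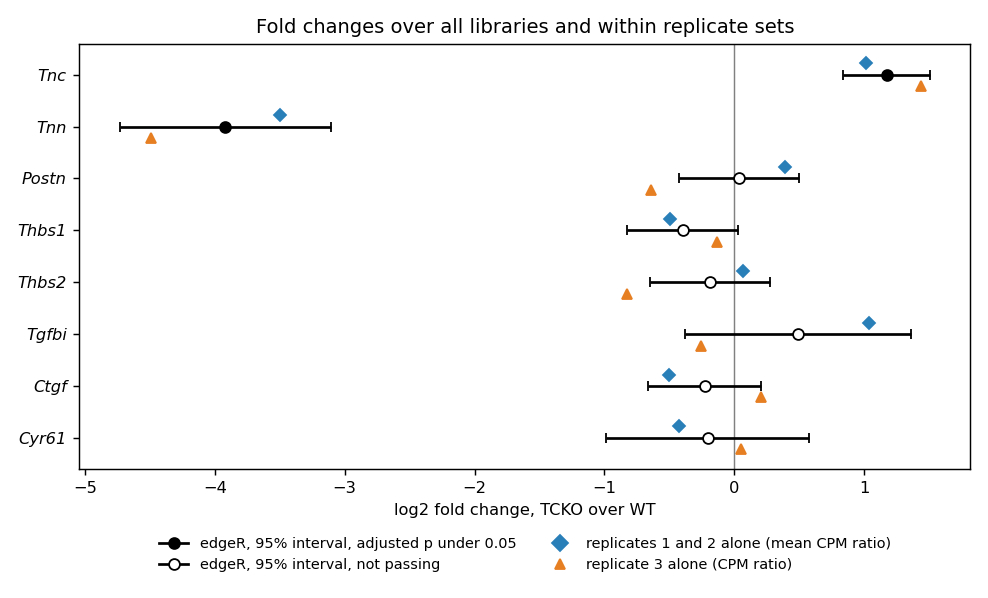
Log2 fold change of TCKO over WT (x axis) for each gene, with edgeR's estimate and 95% interval over all libraries (black, filled where the adjusted p is under 0.05), the ratio within replicates 1 and 2 (diamonds) and within replicate 3 (triangles). Tnc and Tnn keep their side of 0 in both sets, and Postn, Thbs2, Tgfbi, Ctgf and Cyr61 have a symbol on each side of 0.

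Close relatives of these genes were divided in the same way. The counts of every gene and marker list below stand beside 9.44% higher and 8.9% lower among all genes tested. Of 3 other tenascin and thrombospondin genes tested, Thbs3, a thrombospondin of bone and cartilage, was higher in TCKO cells, with 44.6, 47.3 and 40.2 CPM against 21.9, 20.3 and 19.7 CPM in WT (log2 fold change 1.09 ± 0.10 SE, adjusted p = 0.000376 in edgeR). Comp, the cartilage oligomeric thrombospondin, was lower, with 8.30, 9.22 and 4.54 CPM against 34.8, 34.4 and 93.7 CPM in WT (-2.88 ± 0.54, adjusted p = 0.0189), but did not pass without TCKO replicate 1, 2 or 3 (adjusted p = 0.0632, 0.0549 and 0.0709) or with the replicate number as a block (adjusted p = 0.0651). Thbs4 did not pass (-1.38 ± 0.51, adjusted p = 0.106, and 0.0491 in DESeq2), and Tnr and Tnxb were too low to test. Among the other CCN genes, Wisp2, which encodes a CCN protein of osteoblasts and fibroblasts, was lower in TCKO cells (124, 124 and 47.1 CPM against 336, 345 and 287 CPM in WT, log2 fold change -1.71 ± 0.37 SE, adjusted p = 0.0303). Its call was lost without TCKO replicate 1 or 2 or any 1 WT library (adjusted p from 0.0572 to 0.0858). Wisp1 had a log2 fold change of -0.29 (adjusted p = 0.338, and 0.0217 with the replicate block) and Nov of 0.64 (adjusted p = 0.454), and Wisp3 is not in the table.

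Of 19 further matricellular genes tested, 4 were higher, 4 were lower and 11 did not pass, with a median log2 fold change of -0.20. The higher genes included Fbln2, a fibulin of elastic fibres and basement membranes (1.29 ± 0.21, adjusted p = 0.0066), and Smoc2, a calcium-binding relative of Sparc (0.76 ± 0.12, adjusted p = 0.00379). Sparc itself, or osteonectin, was lower, with 5484, 5565 and 4768 CPM in TCKO libraries against 10942, 11102 and 9445 CPM in WT libraries (-0.99 ± 0.11, adjusted p = 0.00109), as was Smoc1 (-2.47 ± 0.33, adjusted p = 0.00209). Spp1, which encodes osteopontin, had 10197, 10574 and 3813 CPM in TCKO libraries against 922, 861 and 2031 CPM in WT libraries (2.69 ± 0.55, adjusted p = 0.024). Its call was lost without TCKO replicate 1 or 2 or WT replicate 1 or 2 (adjusted p from 0.0651 to 0.0818) and with the replicate block (adjusted p = 0.135). Without WT replicate 1 the count of higher genes was 2.

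The receptors that bind these proteins also divided. Of 20 tested, 4 passed on the higher side and 5 on the lower side, against 9.44% and 8.9% of all genes tested. The median log2 fold change was -0.16. Itga5, the fibronectin receptor chain, had 520, 522 and 555 CPM in TCKO libraries against 254, 239 and 333 CPM in WT libraries (0.95 ± 0.12, adjusted p = 0.00189). Itga9, a chain of an integrin that binds tenascin-C, was lower (-0.70 ± 0.12, adjusted p = 0.0063), and Itgav, a chain of integrins that bind periostin and vitronectin, did not pass (-0.04 ± 0.09, adjusted p = 0.790). Itgb1 was higher (0.54 ± 0.10, adjusted p = 0.00955) and Cd36 was lower (-1.12 ± 0.23, adjusted p = 0.0142), but neither passed without WT replicate 1 or 2. Cd47 did not pass (-0.19 ± 0.11, adjusted p = 0.270). Fewer receptors passed without WT replicate 1 (2 higher and 1 lower), WT replicate 2 (1 and 1) or TCKO replicate 2 (3 and 3).

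Of 15 TGF-beta ligands, receptors and effectors, 4 were higher, 3 were lower and 8 did not pass, with a median of -0.01. Tgfb1 and Tgfb2, both ligands, were higher (0.57 ± 0.10, adjusted p = 0.00704, and 0.53 ± 0.09, adjusted p = 0.00522), as was Ltbp3, a binding protein of the latent complex (0.98 ± 0.14, adjusted p = 0.00299). Tgfbr2, the ligand-binding receptor, was lower, with 210, 204 and 145 CPM in TCKO libraries against 503, 517 and 364 CPM in WT libraries (-1.31 ± 0.18, adjusted p = 0.00395). Without WT replicate 3, and also with the replicate block, 5 were higher and 5 lower.

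Ctgf and Cyr61 belong to a list of 22 YAP and TAZ target genes, of which 7 were higher, 3 were lower and 12 did not pass, with a median of 0.14. F3, which encodes tissue factor, had 324, 342 and 463 CPM in TCKO libraries against 57.0, 50.4 and 69.1 CPM in WT libraries (2.68 ± 0.18, adjusted p = 0.000174). Dock5, a guanine nucleotide exchange factor for Rac, was also higher (0.75 ± 0.09, adjusted p = 0.00138), while the phosphatase gene Ptpn14 was lower (-0.84 ± 0.09, adjusted p = 0.000753). Ankrd1, often read beside Ctgf and Cyr61, did not pass (-0.26 ± 0.43, adjusted p = 0.727) but turned to 0.41 and passed without WT replicate 3 (adjusted p = 0.0308). The higher count was 5 without WT replicate 1 or 2, 8 with the replicate block and 9 without WT replicate 3. The lower count was 5 without TCKO replicate 3 and with the replicate block. It was 2 when any 1 library of replicates 1 and 2 was left out.

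Among 11 factors of the YAP and TAZ pathway, 3 were higher, 1 was lower and 7 did not pass, with a median of 0.06. Tead2, which encodes one of the DNA-binding partners, had 106, 98.0 and 101 CPM in TCKO libraries against 62.3, 51.4 and 43.4 CPM in WT libraries (0.96 ± 0.12, adjusted p = 0.0018). Lats2, a kinase that restrains YAP and is itself a target, was lower (-0.77 ± 0.14, adjusted p = 0.00969). Yap1 and Wwtr1, the gene for TAZ, were higher by less (0.34 ± 0.08, adjusted p = 0.0185, and 0.33 ± 0.08, adjusted p = 0.0208). Neither passed without TCKO replicate 1, TCKO replicate 2 or WT replicate 1, nor Wwtr1 without WT replicate 2 (adjusted p from 0.0522 to 0.0802), which left 1 or 2 higher factors.

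Matrix partners were also tested, mostly collagens, proteoglycans and proteases that these proteins bind or are cut by, with Fn1 and Lox. Of 17, 1 was higher, 8 were lower and 8 did not pass, with a median of -0.56. Fn1 (-0.47 ± 0.13, adjusted p = 0.0413) is counted both here and among the 4 lower genes of the further matricellular list. Col5a1, a chain of the fibril-nucleating type V collagen, had 2841, 2850 and 2379 CPM in TCKO libraries against 4529, 4453 and 4479 CPM in WT libraries (-0.74 ± 0.10, adjusted p = 0.00219), and Mmp2, a gelatinase, was lower too (-0.84 ± 0.13, adjusted p = 0.00358). None was higher without any 1 of TCKO replicates 1 and 2 and WT replicates 1 and 2, and the lower count was 4 without TCKO replicate 1 or 2 and 2 without WT replicate 1 or 2. With replicates 1 and 2 summed, none of the lists from the relatives to the matrix partners kept more than 1 gene in a direction.

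**Figure D4:**
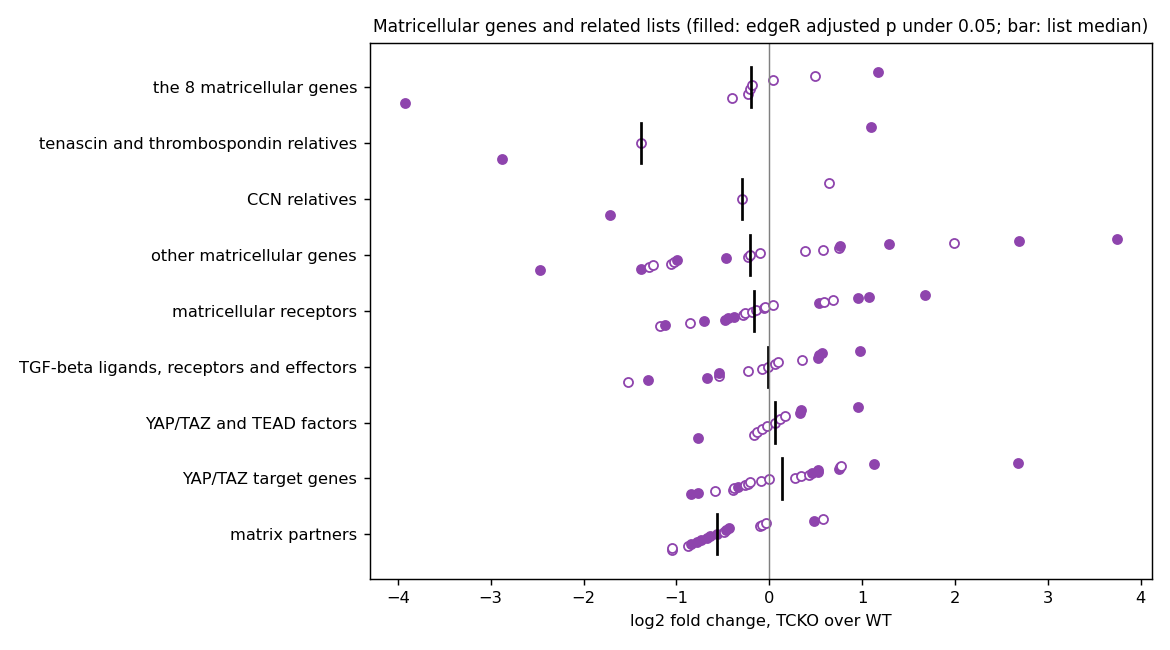
Log2 fold change of TCKO over WT (x axis) of each tested gene (points, filled where edgeR's adjusted p is under 0.05), with the 8 matricellular genes at the top, their relatives and pathway lists below, and each list's median as a bar. List medians lie between -1.38, which rests on 3 genes, and 0.14, and Tnn has the lowest value of all genes drawn.

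Markers of other cell types moved with the genotype beside Tnc and Tnn, and their part in the changes of both genes was not tested. All 10 chondrocyte markers were lower in TCKO cells, with a summed level of 1447, 1347 and 1037 CPM in TCKO libraries against 8919, 8334 and 10032 CPM in WT libraries, and Col2a1, the cartilage collagen, had a log2 fold change of -3.15 ± 0.17 SE (adjusted p = 6.38e-05). With any 1 library left out 9 or 10 of them were lower, and 5 with replicates 1 and 2 summed. Of 6 tendon and periosteum markers tested, 1 was higher and 3 were lower (sum 512 to 537 CPM in TCKO and 1143 to 1837 CPM in WT). Of 8 smooth muscle and pericyte markers, 3 were higher and 1 was lower (0 lower without any 1 library of replicates 1 and 2 and with the replicate block; sum 8536 to 9242 CPM in TCKO and 6211 to 6771 CPM in WT), led by Cnn1 (1.83 ± 0.10, adjusted p = 7.16e-05). Of 8 osteoblast markers, 1 was higher and 3 were lower, with a sum of 16991 to 32527 CPM in TCKO and 32048 to 33767 CPM in WT. The higher gene was Spp1. It made up 10197, 10574 and 3813 CPM of the sums of TCKO replicates 1 to 3, against 922, 861 and 2031 CPM in WT. The overlap of the sums is therefore no measure of the other markers. The osteoblast count was 5 lower with the replicate block, 0 without TCKO replicate 1 and 1 without TCKO replicate 2 or WT replicate 1 or 2.

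Of 10 macrophage and osteoclast markers, 2 were lower (7 with the replicate block, 6 without WT replicate 3 and 1 without any 1 library of replicates 1 and 2), and their sum was 173 to 568 CPM in TCKO and 450 to 782 CPM in WT, with the lowest value of each genotype in replicate 3. Of 3 endothelial markers tested, 2 were higher (1 without TCKO replicate 1 or WT replicate 1 or 2), mainly through Kdr, a VEGF receptor gene, at 42.9, 35.5 and 105.7 CPM in TCKO libraries against 0.46, 0.38 and 1.80 CPM in WT libraries, while the defining genes Pecam1 and Cdh5 were under 1 CPM in every library. Of 3 muscle markers 1 was higher (0 without WT replicate 1 and with the replicate block), and of 3 neural and Schwann cell markers 1 was lower. No keratinocyte marker passed the filter, and the summed level of those listed was at most 1.60 CPM.

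For each member, the gene whose log2 CPM followed it most closely over the 6 libraries was sought among 11104 other genes with a mean of at least 5 CPM. These Pearson correlations describe 6 libraries in 2 genotypes that also share the gap between replicate 3 and the others, and carry no test. Tnn was followed most closely by Crispld2 (r = 0.999), which encodes a secreted cysteine-rich protein and had 25.6, 25.1 and 23.3 CPM in TCKO libraries against 95.7, 92.7 and 137.2 CPM in WT libraries (log2 fold change -2.14 ± 0.16 SE, adjusted p = 0.000256). Tnc was followed by the ligand gene Tgfb1 (r = 0.998), which had 37.6, 37.5 and 45.0 CPM in TCKO libraries against 26.7, 26.6 and 27.8 CPM in WT libraries. Both pairs thus share the separation of the genotypes and the high replicate 3 in 1 genotype.

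None of the genes nearest to the other 6 members passed the test over all libraries. Cyr61 was followed by Csf1, the gene for macrophage colony-stimulating factor (r = 0.998), which had 646, 650 and 1180 CPM in TCKO libraries against 835, 812 and 1166 CPM in WT libraries, again with replicate 3 highest in both genotypes. Postn and Tgfbi were followed by the ribosomal protein genes Rps14 (r = 0.982) and Rps9 (r = 0.996), both genes with near-identical pseudogene copies, Thbs2 by the tRNA synthetase gene Eprs (r = 0.996) and Ctgf by Ghdc (r = 0.996). For Thbs1 the gene was Rbpsuh-rs3 (r = 0.998), named as a copy related to Rbpsuh, so reads may be shared between copies. Rbpsuh-rs3 had a log2 fold change of -1.51 (adjusted p = 0.109 in edgeR), and it passed with the replicate block (adjusted p = 0.00598), in DESeq2 (0.00761) and without WT replicate 3 (0.00115), while Ghdc passed without TCKO replicate 3 (adjusted p = 0.0153).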

How the data were processed

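RNA-seq was performed on 6 libraries of cultured mouse osteoblasts, 3 TCKO and 3 WT, grouped by their labels. The authors deposited 1 table of raw read counts per gene symbol from reads aligned to GRCm38. As aligner, the submitters' processing notes give HISAT2 but the published methods give STAR. The data statement of the publication names a different series for RNA-seq, and the publication was matched to these data by their design and protocol. The counting program and its use of strand are not given in the sources used here. In addition, the deposited table holds the authors' deposited normalized signal per genotype and the log2 fold change, p-value and FDR of their own comparison, none of which were used. Every entry names a gene. The table lists no gene with fewer than 10 reads over the 6 libraries, so a gene that is not listed has no level here.

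Counts were tested in R 4.3.3 with edgeR 4.0.16 (filterByExpr, TMM, robust quasi-likelihood, genotype as the only term), with Benjamini-Hochberg adjustment over all 13630 genes tested. The SE was taken from the fold change and the F statistic. The filter set aside 2825 genes. CPM are TMM-scaled, and levels per kb use exon lengths found for 14855 genes (90.3%). Positions and sequences are RefSeq's for GRCm38.p6, 1-based. The scripts were tested on simulated data with 200 genes changed. Alternatives were DESeq2 1.42.0, limma 3.58.1 (voom), DESeq2 size factors, total-count and upper-quartile scaling, other filters, no robust estimation, each library left out, replicates 1 and 2 summed and a replicate block. Deviations of same-numbered libraries from their genotype means correlated over 11113 genes (0.23, 0.24 and 0.34). Replicates 1 and 2 correlated about as much across numbers (0.22 and 0.28). These values set replicate 3 apart but cannot tell which libraries of replicates 1 and 2 belong together. The number was therefore used as a block in an alternative only, and the main test used no pairing. All libraries differed beyond sampling noise and were kept apart. Total counts of 8119261 to 10657824 reads limit the precision of low genes.

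The members, the gene lists and the rule for named genes were chosen with earlier results of these data known. The rule names all 8 members, up to 3 genes in each direction per list by smallest adjusted p among those passing, genes needed to state that a result did not pass, and each member's most closely following gene. The text above describes only some of the list genes that meet this rule. The fits within replicate sets were added after seeing the data.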

Additional observations from a re-analysis of the deposited data

How the results depend on the processing

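Of 128 values of the 8 members under 16 alternatives, 118 kept their direction and their side of the threshold. Tnn passed in all 16 (adjusted p at most 0.021), and Tnc in all but that with replicates 1 and 2 summed. The replicate block changed no member's call: Tnc had a log2 fold change of 1.15 (adjusted p = 0.000462) and Tnn of -3.83 (adjusted p = 0.00158), with 3352 genes passing in all against 2500 without the block. With 1 library left out, 1 to 2 members were higher and 1 to 2 lower, and between 1190 and 3313 genes passed in all. The extra calls were Tgfbi and Thbs1 without WT replicate 3 and Ctgf without TCKO replicate 3. They leave replicates 1 and 2 as the only libraries of a genotype (chi-square per degree of freedom 1.75 in WT and 2.53 in TCKO). Their adjusted p therefore rests in part on the scatter of that close pair. With replicates 1 and 2 summed, 0 members were higher and 353 genes passed.

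Among leave-one-out fits, the log2 fold change of Postn ran from -0.074 to 0.25, of Thbs2 from -0.31 to 0.030, of Eprs from -0.14 to 0.040, of Rps14 from -0.0097 to 0.091, of Csf1 from -0.53 to 0.0039, of Itgav from -0.13 to 0.0090 and of Ankrd1 from -0.53 to 0.41. With replicates 1 and 2 summed, Postn had -0.13 and Rps14 -0.019. The causes were not tested. A further 45 genes were followed through the alternatives, not all of them named above, and Col1a1 and the Tet genes were not among them. Of their 720 values, 645 kept direction and call, 63 kept direction but no longer passed, and 6 kept direction and newly passed. Another 6 changed sign, whatever their call, among them Ankrd1 without WT replicate 3, which also newly passed. The 95% intervals of the 6 members that did not pass still hold changes of up to 0.50 to 1.36 in log2 size, so no equality is shown.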
